A study of Mus musculus with 8 samples.

Results

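The 40 genes described here encode the machinery of regulated secretion: synaptic vesicle proteins, the proteins that dock and fuse vesicles, and the cargo, processing enzymes and membrane proteins of dense-core granules. They were taken from a list of exocytosis, synaptic vesicle and secretory granule genes and matched by gene symbol. All 40 were among the 35419 gene symbols in the deposited quantifications, and 36 of them were among the 15193 genes that passed the filter on low counts. RNA was sequenced from 8 subcutaneous tumors of N2A cells (Neuro-2a, a neuroblastoma line of mouse origin) grown in syngeneic female A/J mice, bought at 4 weeks of age and injected with 1000000 cells each. Once a tumor could be felt, mice received i.p. injections 2 times a day for 8 days. They were given vehicle (physiological solution; 4 tumors, labelled 0 to 3) or 10 mg/kg of SR59230A, a compound that blocks the β3-adrenergic receptor (4 tumors, labelled 1 to 4). The comparison asks whether blocking this receptor went with a different level of secretory genes in the tumor mass. Each library is bulk tumor from 1 cell line and also holds host cells, so fewer tumor cells and less RNA per tumor cell cannot be told apart. The labels do not say which mouse each tumor came from, and p-values measure the spread between these samples.

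In neurons and neuroendocrine cells, secretion on demand uses 2 kinds of organelle. Small synaptic vesicles carry classical transmitters, are recycled at the release site, and fuse through the SNARE proteins under control of complexins and synaptotagmins, the latter being the calcium sensors. Dense-core granules carry peptides, granins and, in cells of the sympathoadrenal lineage from which neuroblastoma arises, catecholamines. Granins help to build the granule core, prohormone convertases and carboxypeptidase E trim the cargo inside it, and the protein tyrosine phosphatase-like proteins Ptprn and Ptprn2 sit in its membrane.

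Some sequences are shown first because the results on isoforms and on levels refer to them. Snap25, a core SNARE protein of the plasma membrane (GRCm38, chr2:136713453-136782428, plus strand), has 2 alternative versions of exon 5 in its coding sequence. Both exons are 118 bases long and differ at 31 positions (73.7% identity), which are in capitals below. The upstream exon belongs to the SNAP-25a form and the downstream exon to the SNAP-25b form. They were read from the GENCODE M21 transcripts.
Snap25-202, exon 5, chr2:136769743-136769860: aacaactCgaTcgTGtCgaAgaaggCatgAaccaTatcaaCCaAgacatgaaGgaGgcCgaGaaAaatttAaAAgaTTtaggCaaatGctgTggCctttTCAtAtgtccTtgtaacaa
Snap25-201, exon 5, chr2:136770057-136770174: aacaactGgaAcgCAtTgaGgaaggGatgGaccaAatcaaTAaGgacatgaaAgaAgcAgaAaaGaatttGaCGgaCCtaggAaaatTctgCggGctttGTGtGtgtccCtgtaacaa

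The promoter windows were searched for the cyclic AMP response element (CRE), bound by factors of the CREB family, which act downstream of receptors that raise cyclic AMP. The palindrome TGACGTCA was searched on both strands in RefSeq windows (GRCm38.p6) of 250 bases before to 50 bases after each gene start. Windows were matched for 32 of the 40 genes, and 4 of the 32 held the palindrome (12.5%) against 2.03% of 27025 genes in the table. No window was matched for Rab27b, Vamp2, Snap25, Rims2, Syt4, Syt7, Vgf and Cpe, so these genes were not searched. The capitals mark the palindrome, and the lines below give the 4 matches in the direction of the gene.
Chgb, 72 bases before the start, chr2:132781560-132781587, plus strand: ggctgctccgTGACGTCAgggctgagcg
Scg2, 68 bases before the start, chr1:79440077-79440104, minus strand: gctgagccggTGACGTCAgcgtggaatg
Pcsk1, 78 bases before the start, chr13:75089769-75089796, plus strand: caggtagatcTGACGTCAagagatggct
Syn1, 159 bases before the start, chrX:20921060-20921087, minus strand: aaaggctgacTGACGTCActcactagcc
The stretches of Chgb and Scg2 lie in an exon of the same gene in GENCODE, which places those starts further upstream, and those of Pcsk1 and Syn1 lie in none. The CRE core TGACG, which every palindrome also contains, was in 14 of 32 windows (43.8%) against 23.0% of all genes. These matches are a description of letters in a window and not of bound sites.

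The element RE1 is bound by REST, a repressor of neuronal genes outside the nervous system. Its left part, TTCAGCACC, was in the windows of 4 of 32 genes (Ptprn2, Scg2, Syn1 and Unc13a; 12.5%) against 0.433% of all genes, and its right part, GGACAGCGC, in those of Ptprn2 and Unc13a (6.25% against 0.477%). Both genes with the pair have it just downstream of the start on the opposite strand. The capitals mark both parts.
Ptprn2, chr12:116485724-116485741, plus strand: GCGCTGTCCGGTGCTGAA
Unc13a, chr8:71671727-71671752, minus strand: GCGCTGTCCgcgcccccGGTGCTGAA
The parts abut in Ptprn2 and are 8 bases apart in Unc13a. Like those of the CRE, these matches describe letters in a window and not bound sites.

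Libraries held 23484190 to 44045575 estimated reads, and the 40 genes took 0.487% to 0.763% of them (122877 to 324610 reads). SR59230A tumor 3 and vehicle tumor 3 stood apart with the largest shares of mitochondrially encoded reads (7.49% and 6.14%). Their shares of transcript models with a retained intron were also the largest (4.21% and 3.77%). SR59230A tumor 1 was close to them in that share (3.73%), against 2.49% to 2.96% in the remaining tumors. SR59230A tumor 1 stood apart with skeletal muscle markers summing to 772 TPM (transcripts per 1000000) against 1.54 to 4.26 in the vehicle tumors and 3.77 to 57.9 in the other SR59230A tumors. Fibroblast markers summed to 362 TPM in SR59230A tumor 1 and 291 in SR59230A tumor 2, against 138 to 209.5 in the other tumors. Neuroblast markers were present, with Phox2a at 76.6 to 179 TPM and Hand2 at 73.6 to 142 TPM, while Nefl and Nefm stayed at or below 0.162 TPM. The 16 neuroblast markers summed to 658 to 1756 TPM in vehicle tumors and 702 to 1450 TPM in SR59230A tumors.

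The tumors expressed a granule cargo programme at high level and a selective set of vesicle genes. TPM corrects for transcript length, so levels can be compared between genes on this scale. Of the 40 genes, 32 were at or above 1 TPM in every tumor and 7 stayed under 1 TPM in all of them. Chgb (chromogranin B, a granin of the granule core) had the highest mean level, at 1105 TPM over the 8 tumors, and ranked between 67 and 144 among protein-coding genes in each tumor. It was followed by Vgf, a granin-like precursor of several peptides (411 TPM), Scg2, secretogranin II (275 TPM), Scg5, the 7B2 chaperone of the convertase PC2 (163 TPM), Scg3, which sorts granins to the granule membrane (132 TPM), Chga, chromogranin A (107 TPM), the vesicle glycoprotein Sv2c (98.3 TPM) and Cpe, carboxypeptidase E (85.2 TPM). The 5 granins together made up 59.9% to 67.2% of the summed TPM of the 40 genes. The lowest Chgb value, 789 TPM, lay above the highest Vgf value, 618 TPM. From Vgf on, the ranges of neighbours in this order overlapped.

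**Figure D1:**
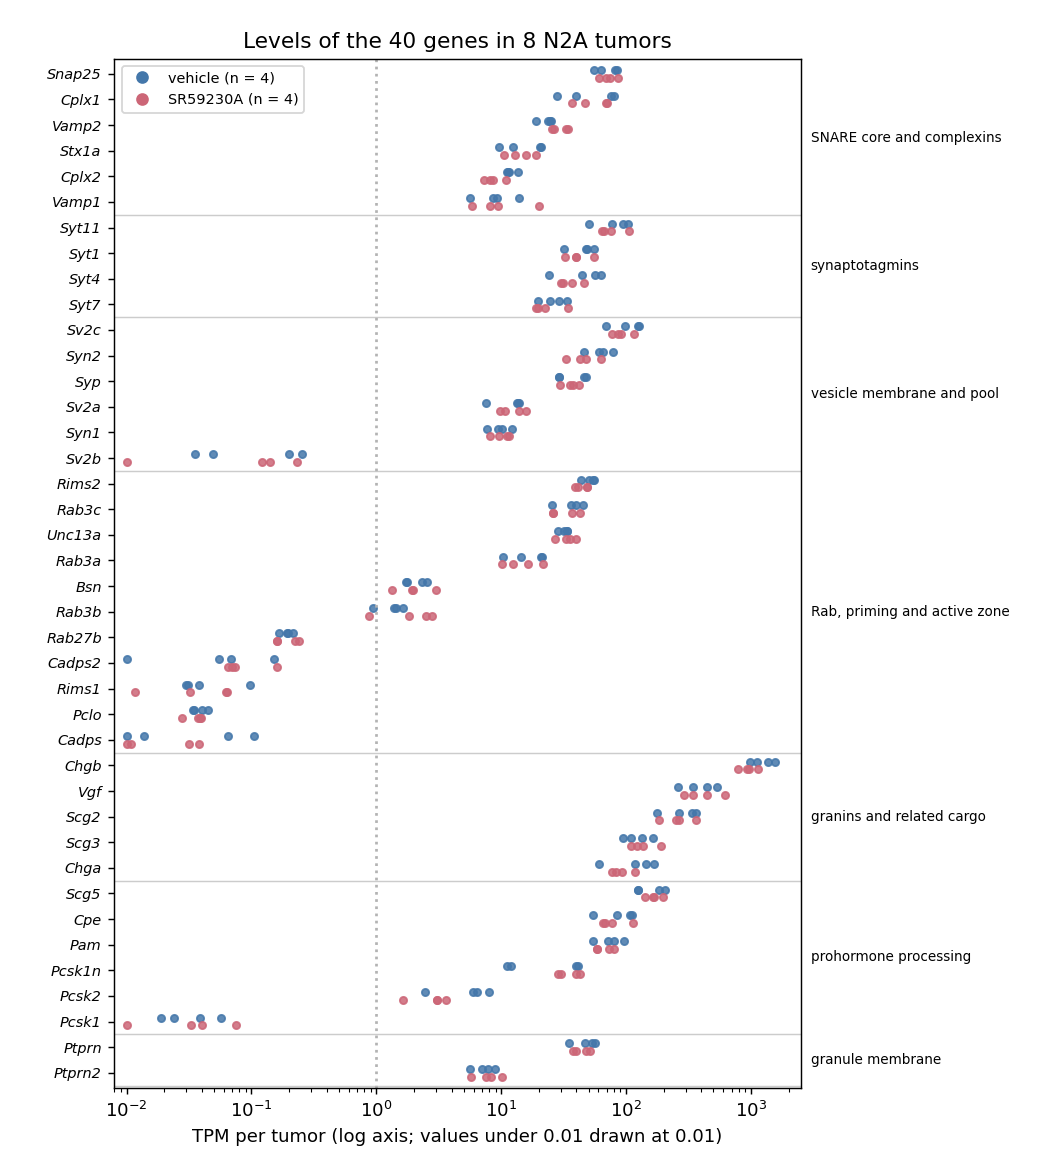
Level of each of the 40 genes in each tumor in TPM on a log axis (values under 0.01 drawn at 0.01), grouped by role, with 1 point per tumor (blue, 4 vehicle; red, 4 SR59230A). Chgb has the highest mean level (1105 TPM), and 7 genes lie left of the dotted line at 1 TPM in every tumor.

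Within families, 1 paralog usually carried most of the transcript. Sv2c was 5.58 to 9.39 times Sv2a in the 8 tumors, and Sv2b averaged 0.129 TPM. Synapsins tether vesicles to the cytoskeleton, and Syn2 exceeded Syn1 by 3.42 to 6.95 times. Cplx1 exceeded Cplx2, its fellow complexin, by 2.42 to 8.54 times. Among the small GTPases of the set that mark secretory vesicles, Rab3c (34.7 TPM) exceeded Rab3a (15.8 TPM) in all 8 tumors. Rab3b averaged 1.67 TPM and Rab27b 0.194 TPM. Outside the set, Rab27a averaged 33.2 TPM (20.8 to 47.1) and Rab3d 10.6 TPM. Ptprn (IA-2) was 4.75 to 6.78 times Ptprn2 (IA-2β).

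The priming and active zone genes of the set were divided in the same way. Rims2, a Rab3-binding scaffold of the release site, averaged 47.7 TPM and Unc13a, which opens syntaxin for priming, 32.8 TPM. Outside the set, the paralog Unc13d averaged 168 TPM (93.3 to 261), while Unc13a reached at most 39.4 TPM. This gap was not seen in CPM, which scales counts to library size and does not correct for transcript length. Unc13d averaged 87.8 CPM in vehicle and 118 CPM in SR59230A tumors, against 124 and 115 CPM for Unc13a. The gap in TPM therefore depends on the transcript models to which Unc13d reads were assigned, and this assignment was not tested. Rims1 had 1 to 12 reads per tumor, and the priming factors of dense-core granules Cadps and Cadps2 had 0 to 7 and 0 to 11 reads. The large scaffolds Bsn (bassoon) and Pclo (piccolo) averaged 2.08 and 0.0372 TPM. Of the convertases, Pcsk2 (PC2) averaged 4.26 TPM, and Pcsk1 (PC1/3), whose window holds a CRE palindrome, had 0 to 5 reads per tumor. A count of 0, as for Pcsk1 in SR59230A tumor 3, allows up to 3 reads by counting error alone. Rims1, Cadps, Cadps2 and Pcsk1 were the 4 genes that did not pass the filter on low counts.

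Most Snap25 transcript was assigned to the form with the downstream exon 5 in all 8 tumors. Snap25-201, with the downstream exon, held 67.0% to 78.6% of the gene's TPM and Snap25-202, with the upstream exon, 16.7% to 28.6%. SR59230A tumor 3 had both the highest share of the former and the lowest of the latter, and the other 7 tumors lay within 67.0% to 74.1% for Snap25-201. The models also differ in the length of their last exon (1354 and 277 bases), so the shares do not rest on exon 5 alone. Models annotated as other than protein-coding took a median 4.77% of a gene's TPM in SR59230A tumor 3, over the 33 genes with a mean of at least 1 TPM, against 0.958% to 3.14% in the other tumors. For Pcsk2 the processed transcript Pcsk2-202 made up 28.4% of TPM in vehicle tumor 3 and 25.9% in SR59230A tumor 3, against 3.01% to 13.8% elsewhere.

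No gene of the set was called between SR59230A and vehicle tumors. Differences were fitted with edgeR's quasi-likelihood test on counts, Benjamini-Hochberg adjusted over 15193 genes, and a gene was called at an adjusted p under 0.05 if its log2 fold change was also 0.5 or more in size. It called 0 of 36 tested genes of the set and 0 of 15193 genes (0%), while DESeq2 called 0 of 36 and 17 of 15193 (0.112%). At an unadjusted p under 0.05 edgeR had 5 of the 36, all lower in SR59230A tumors, against 4.63% of all genes in either direction and 2.41% of all genes lower. The 5 were Syn2, Pcsk2, Cplx2, Syt4 and Rab3c, and DESeq2 had 7 at that level, these 5 and Chgb lower and Pcsk1n higher, against 5.48% of all genes in either direction. The median log2 fold change (SR59230A over vehicle) of the 36 was -0.10, with 24 lower and 12 higher, beside -0.0016 and 7652 lower of 15193 for all genes tested. On log2(TPM + 1), 22 of the 36 were lower, beside 38.2% of all genes, whose median there was 0.05. Values on the count scale ran from -1.01 (Pcsk2) to 0.62 (Sv2b), and 22 of 36 were within 0.25 of 0. Without SR59230A tumor 1, the tumor with the muscle transcripts, the median was -0.05, 21 of 36 were lower and 2 (Syn2 and Pcsk2) had an unadjusted p under 0.05, beside 51.4% of all genes lower and 3.78% at that p. That count was 3 without vehicle tumor 0 (2.24% of all genes) and 3 without SR59230A tumor 2 (5.64%). Without both SR59230A tumors 1 and 2 the median was -0.015, beside -0.017 for all genes. The 13 neuroblast markers tested had a median of -0.34, with 12 values below 0 and 1 above. None of the 13 was called, and 4 were lower at an edgeR unadjusted p under 0.05, beside 2.41% of all genes. The part of the neuroblast markers in the values of the 36 genes was not tested.

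**Figure D2:**
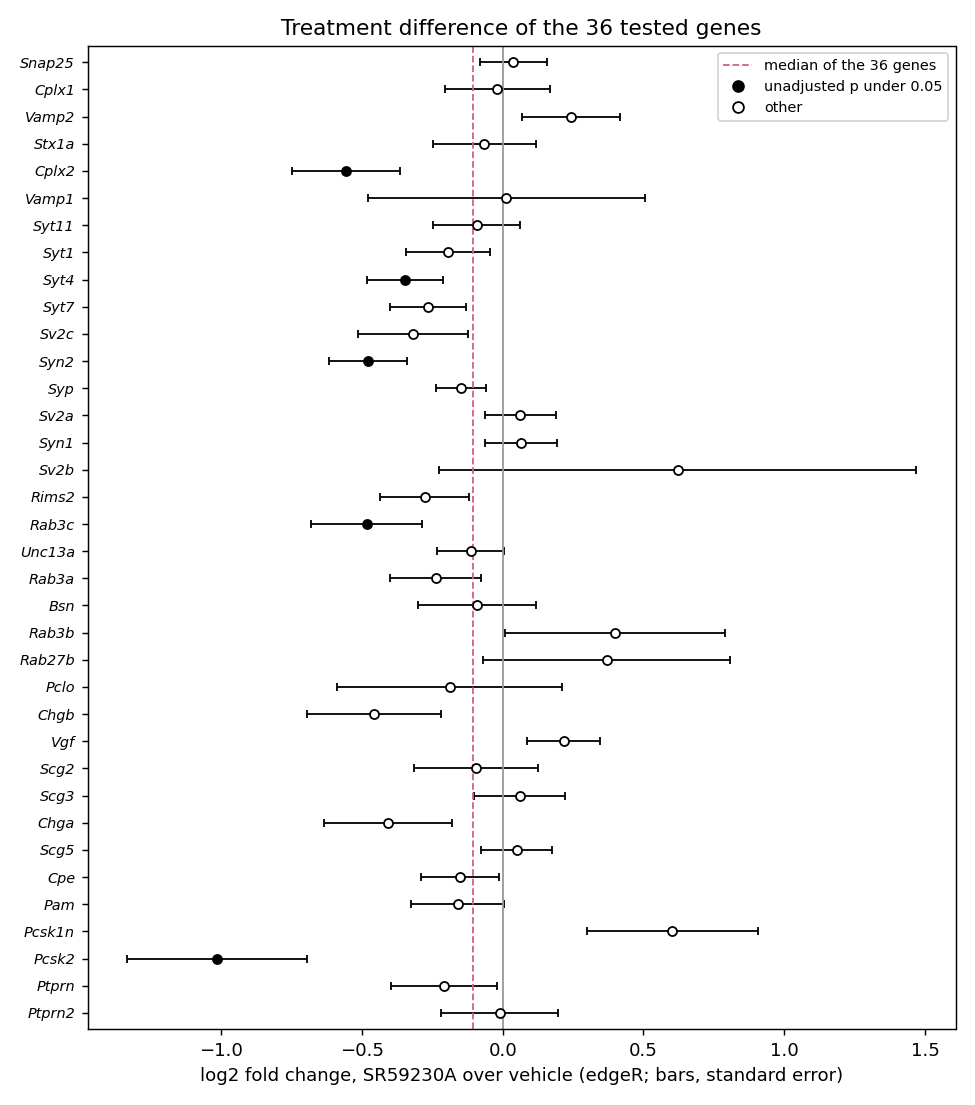
Log2 fold change (SR59230A over vehicle) of the 36 tested genes, in role order, with edgeR standard errors as bars. Filled points are the 5 genes with an unadjusted p under 0.05, all left of 0, and the dashed line is the median at -0.10.

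Among the SNARE core and complexins, 3 of 6 genes were lower and 3 higher, with a median log2 fold change of -0.00. Cplx2, a clamp and activator of SNARE complexes, had 52.0, 41.2, 35.9 and 61.9 CPM (counts per 1000000 reads, with libraries scaled by TMM factors) in vehicle tumors 0 to 3 and 25.9, 32.1, 31.2 and 40.6 CPM in SR59230A tumors 1 to 4. SR59230A tumor 4 lay above vehicle tumor 2, and the other 3 SR59230A tumors lay below every vehicle tumor. Its log2 fold change was -0.56 ± 0.19 (SE, n = 4 against 4; edgeR adjusted p = 0.996). The exact permutation test (two-sided) gave p = 0.0571, where the smallest possible is 0.0286. Without SR59230A tumor 1 it was -0.46. The other 5 members lay between -0.07 (Stx1a, syntaxin 1A) and 0.24 (Vamp2, the vesicle SNARE synaptobrevin 2), with Snap25 at 89.2 ± 5.78 CPM in vehicle and 91.6 ± 14.04 CPM in SR59230A tumors (SD, n = 4 each). Vamp1, picked out after its values were seen, was highest in the 2 libraries with the largest mitochondrial and retained intron shares. It was at 34.1 CPM in vehicle tumor 3 and 40.05 CPM in SR59230A tumor 3 against 9.48 to 21.1 CPM in the other 6. Among those 6 was SR59230A tumor 1 (14.7 CPM), whose retained intron share (3.73%) was close to that of vehicle tumor 3 (3.77%).

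All 4 synaptotagmins had a lower mean in SR59230A tumors, with log2 fold changes from -0.35 to -0.09. Syt4, found on granules and a poor binder of calcium, had 127, 119, 112 and 84.1 CPM in vehicle tumors 0 to 3 and 78.2, 86.8, 89.4 and 93.0 CPM in SR59230A tumors 1 to 4. Vehicle tumor 3 lay among the SR59230A tumors, while the other 3 vehicle tumors were above all of them. The difference was -0.35 ± 0.13 (exact permutation p = 0.114; edgeR adjusted p = 0.996). Syt7, a slow high-affinity calcium sensor, had 85.3, 72.0, 69.2 and 74.7 CPM in vehicle and 47.8, 63.6, 70.2 and 68.7 CPM in SR59230A tumors. Only SR59230A tumor 3 exceeded a vehicle tumor, and the log2 fold change of -0.27 ± 0.14 moved to -0.16 without SR59230A tumor 1, whose value was the lowest. Syt1, the fast sensor of synaptic vesicles, and Syt11 differed by -0.19 and -0.09.

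Syn2 was the 1 gene of the 36 whose groups did not overlap, beside 2.61% of all tested genes and 1.28% of all tested genes in the lower direction. Its levels were 159, 136, 111 and 128 CPM in vehicle tumors 0 to 3 and 87.4, 108, 105 and 82.1 CPM in SR59230A tumors 1 to 4. The lowest vehicle tumor and the highest SR59230A tumor were both labelled 2. The log2 fold change was -0.48 ± 0.14, or 0.717 of the vehicle level (edgeR adjusted p = 0.996; exact permutation p = 0.0286, the smallest that 70 assignments allow). Leaving out each tumor in turn kept it between -0.56 and -0.38. It was -0.29 without vehicle tumors 0 and 3 and SR59230A tumor 4, and with upper quartile factors the groups overlapped. Part of the Syn2 exons overlaps those of Timp4 on the opposite strand, as Syn1 overlaps Araf, Rab3a Mpv17l2, Unc13a Colgalt1 and Pcsk1n Eras, and whether the quantification used strand is not given in the sources used here.

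Syn1 was at 16.2 ± 1.26 CPM in vehicle and 16.9 ± 2.20 CPM in SR59230A tumors. Sv2c, with 739, 489.5, 404 and 477 CPM in vehicle tumors and 369.8, 461, 380.0 and 482 CPM in SR59230A tumors, had a log2 fold change of -0.32 ± 0.19, which was -0.11 without vehicle tumor 0, its highest value, and -0.15 on log2(TPM + 1). Syp (synaptophysin, a main protein of the vesicle membrane) was at 54.0 ± 1.32 against 48.7 ± 3.89 CPM, and Sv2a at 32.3 ± 1.56 against 33.8 ± 5.20 CPM. Sv2b had 6, 23, 11 and 5 reads in vehicle tumors and 0, 20, 21 and 16 reads in SR59230A tumors. Its log2 fold change of 0.62 ± 0.85 rests on these counts, and it was 0.05 without SR59230A tumor 3.

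**Figure D3:**
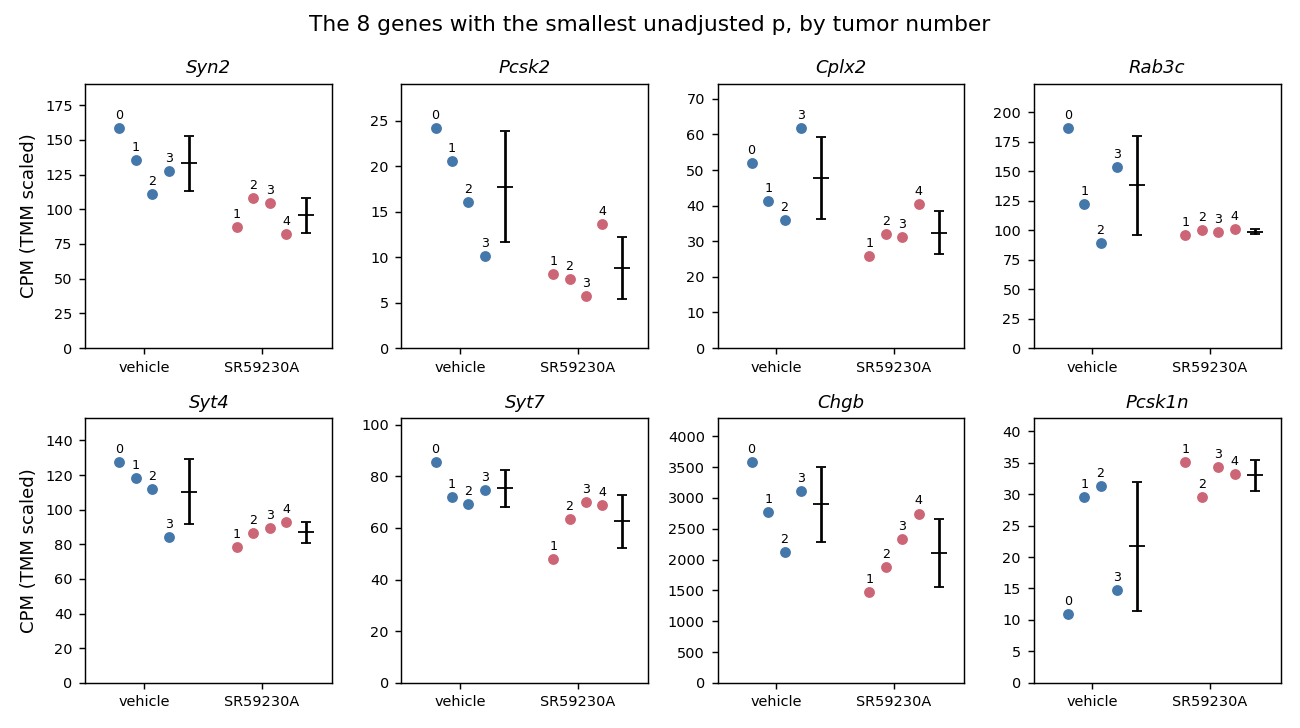
CPM of the 8 genes with the smallest unadjusted p in vehicle (blue) and SR59230A (red) tumors, each point labelled with its tumor number, with the mean and SD in black. Syn2 has no overlap between groups, Chgb is lowest in SR59230A tumor 1 (1481 CPM), and Pcsk1n is low in vehicle tumors 0 and 3.

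Of the 8 tested Rab, priming and active zone genes, 6 were lower and 2 higher (median -0.15). Rab3c had 187, 122.6, 89.3 and 153 CPM in vehicle tumors 0 to 3 and 95.8, 99.8, 98.1 and 101 CPM in SR59230A tumors 1 to 4. The SR59230A tumors were within 6 CPM of each other, while the vehicle tumors spread on both sides of them. The log2 fold change of -0.48 ± 0.20 (edgeR adjusted p = 0.996; exact permutation p = 0.143) was -0.31 without vehicle tumor 0, -0.22 with an offset for transcript length and -0.16 on log2(TPM + 1). The transcript Rab3c-201 held 69.2% and 65.6% of the gene's TPM in vehicle tumors 0 and 3, the highest in CPM, against 35.8% to 49.2% in the other 6. Rims2 was at 139 ± 30.6 against 115 ± 10.9 CPM, Unc13a at 124 ± 15.9 against 115 ± 9.96 CPM, and Rab3a at 13.9 ± 1.80 against 11.8 ± 1.93 CPM. Rab3b and Rab27b, the 2 that were higher, had 23 to 72 and 12 to 23 reads per tumor.

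Of the 5 granins, 3 were lower and 2 higher. Chgb had 3576, 2767, 2129 and 3106 CPM in vehicle tumors 0 to 3 and 1481, 1872, 2339 and 2748 CPM in SR59230A tumors 1 to 4. SR59230A tumors 1 and 2 lay below every vehicle tumor and the other 2 within their range. The log2 fold change was -0.46 ± 0.24 (edgeR adjusted p = 0.996; exact permutation p = 0.114), and -0.19 without SR59230A tumors 1 and 2. Chga had 227, 182, 142 and 114 CPM in vehicle tumors and 95.3, 124, 119 and 163 CPM in SR59230A tumors, a log2 fold change of -0.41 ± 0.23 with broad overlap (-0.22 without vehicle tumor 0). Scg2, which shares a CRE palindrome with Chgb, had 565, 531, 506 and 462 CPM in vehicle tumors and 279, 509.7, 521 and 622 CPM in SR59230A tumors. Its lowest and highest values were both from SR59230A tumors, and its log2 fold change of -0.10 turned to 0.10 without SR59230A tumor 1. Scg3 had 215, 204, 179 and 219 CPM in vehicle tumors and 159, 228, 196 and 269 CPM in SR59230A tumors, so that its lowest and highest values were from SR59230A tumors as well. Vgf had 352, 437, 436 and 341 CPM in vehicle tumors and 417, 511, 445 and 448 CPM in SR59230A tumors, with a log2 fold change of 0.22 ± 0.13 and 1 SR59230A tumor inside the vehicle range. It was 0.09 on log2(TPM + 1).

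The prohormone processing genes held the lowest and the second highest fold change of the set. Pcsk2, which cleaves prohormones late in the granule, had 24.2, 20.5, 16.1 and 10.1 CPM in vehicle tumors 0 to 3 and 8.18, 7.56, 5.69 and 13.6 CPM in SR59230A tumors 1 to 4. Of the SR59230A tumors, 3 were below all vehicle tumors, and tumor 4 lay between vehicle tumors 2 and 3. The log2 fold change was -1.01 ± 0.32, or 0.495 of the vehicle level (edgeR adjusted p = 0.996; exact permutation p = 0.0571), and it ran from -1.31 to -0.83 on leaving out each tumor. The antisense genes Pcsk2os1 and Pcsk2os2 overlap its locus.

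Pcsk1n, whose product proSAAS inhibits PC1/3, had 11.01, 29.6, 31.4 and 14.7 CPM in vehicle tumors 0 to 3 and 35.0, 29.5, 34.3 and 33.2 CPM in SR59230A tumors 1 to 4. Vehicle tumors 1 and 2 were at the level of the SR59230A tumors and vehicle tumors 0 and 3 below it. The log2 fold change was 0.60 ± 0.30 (edgeR adjusted p = 0.996; exact permutation p = 0.0857), and 0.39 without vehicle tumor 0. Scg5, the partner of PC2, had 114, 129.96, 121 and 137 CPM in vehicle and 108, 121, 154 and 135 CPM in SR59230A tumors. Cpe had 112, 111, 113 and 94.4 CPM in vehicle and 72.5, 106, 108 and 100.3 CPM in SR59230A tumors (log2 fold change -0.15, or -0.04 without SR59230A tumor 1). Pam, which amidates peptide ends, had 154 ± 18.8 against 138 ± 30.1 CPM. Of the granule membrane proteins, Ptprn had 99.4 ± 19.6 against 86.1 ± 19.6 CPM and Ptprn2 16.3 ± 2.94 against 16.2 ± 3.95 CPM.

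Many of the lowest values came from 1 tumor. SR59230A tumor 1 had the lowest CPM for 20 of the 36 genes, among them 9 of 12 tested granins, processing enzymes and granule membrane proteins, while 14.2% of all tested genes had their lowest value there. Vehicle tumor 0 had the highest CPM for 14 of the 36, against 12.02% of all genes. The median deviation of the 36 genes from their own means was -0.29 log2 units in SR59230A tumor 1 and 0.22 in vehicle tumor 0, and lay between -0.07 and 0.08 in the other 6 tumors. The muscle and fibroblast sums given above were highest in SR59230A tumor 1. Macrophage markers were highest there too, at 384 TPM against 150.2 to 304 in vehicle tumors and 166 to 349 in the other SR59230A tumors. Neuroblast markers summed to 1075 TPM in SR59230A tumor 1, inside the range of the vehicle tumors (658 to 1756 TPM). The part of these cell types in the low values was not tested.

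**Figure D4:**
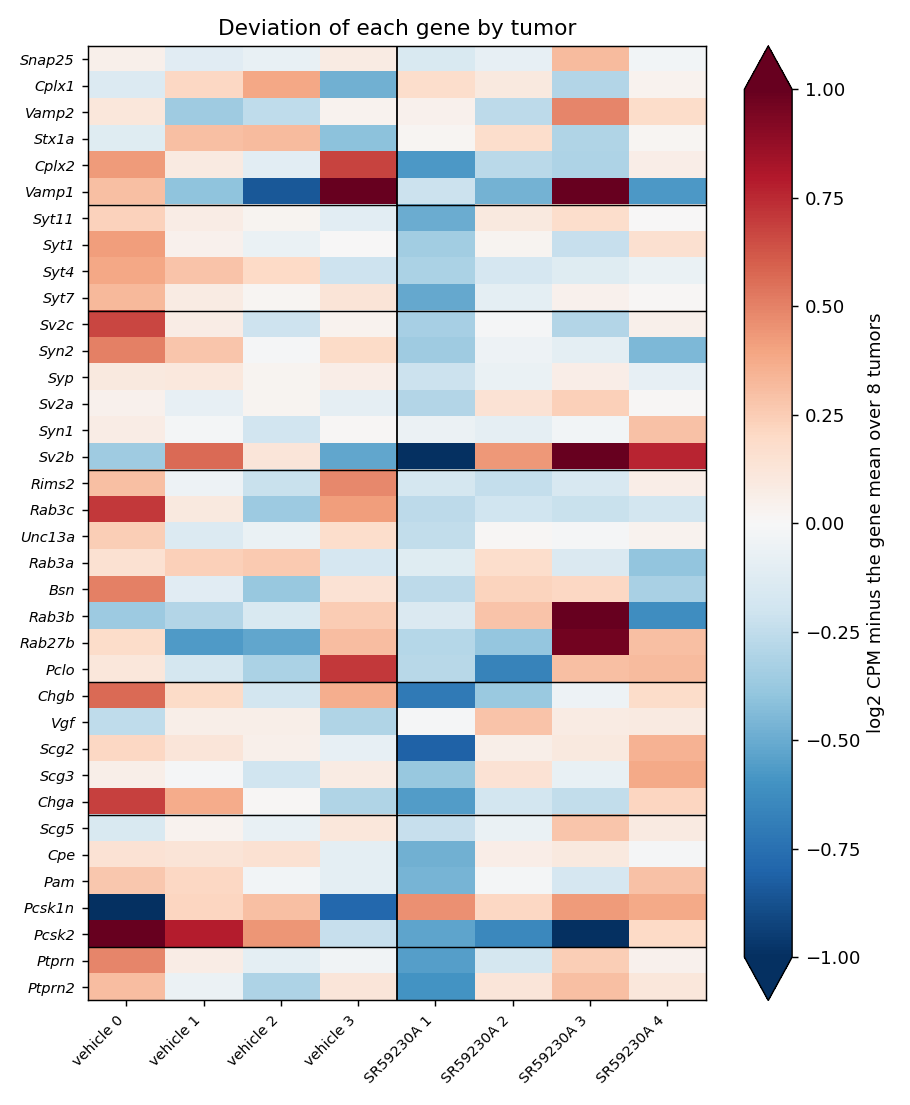
Deviation of log2 CPM from the gene's mean over 8 tumors for each of the 36 tested genes (rows, in role order) in each tumor (columns), red above and blue below the mean, with colours ending at 1 log2 unit. The column of SR59230A tumor 1 is mostly blue (lowest value of 20 genes) and that of vehicle tumor 0 mostly red (highest value of 14 genes).

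Ratios of paralogs within a tumor do not depend on library scaling, and 6 pairs were compared. The log2 ratio of Syn2 to Syn1 was 2.80, 2.67, 2.61 and 2.57 in vehicle tumors 0 to 3 and 2.09, 2.44, 2.40 and 1.77 in SR59230A tumors 1 to 4. Every SR59230A tumor lay below every vehicle tumor, with a difference of -0.48 (exact permutation p = 0.0286, 0.171 after adjustment over the 6 pairs, which is the least that 1 pair alone can reach). It rests on the Syn2 values given above, and the pairs were chosen after values were seen. The ratio of Ptprn to Ptprn2 differed by -0.20 and that of Sv2c to Sv2a by -0.21, both with overlapping groups. The ratio of Cplx1 to Cplx2 was 2.09 ± 0.698 in vehicle and 2.64 ± 0.336 in SR59230A tumors, with the lowest values in vehicle tumors 3 and 0. Rab3c to Rab3a, both as TPM, differed by -0.026. For Vamp2 to Vamp1 the vehicle value was 1.37 ± 0.693 and the SR59230A value 1.598 ± 0.580.

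**Figure D5:**
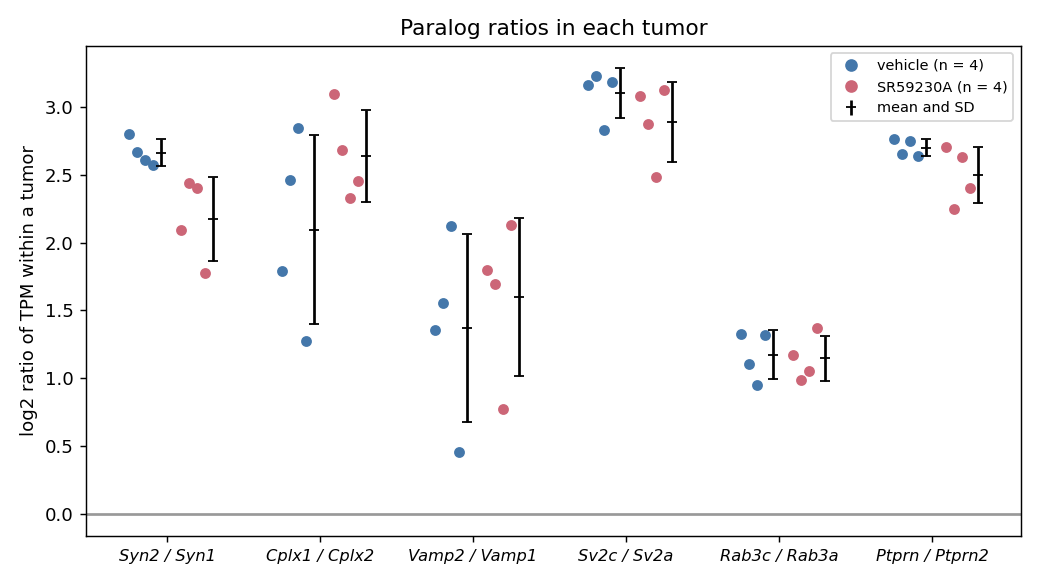
Log2 ratio of TPM of 2 paralogs within each tumor for 6 pairs (blue, vehicle; red, SR59230A), with the mean and SD in black. All points lie above 0, and only for Syn2 to Syn1 are all 4 SR59230A points below all 4 vehicle points.

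The effect of treatment was also compared between the tumors labelled 1 and 2 in each group and the other 4, because the study describes duplicates. A test of the interaction called 0 of 36 genes and 0 of 15193 (0%), with 5.09% of all genes and 2 of the 36 at an unadjusted p under 0.05. For Pcsk1n the log2 fold change was 0.09 in the tumors labelled 1 and 2 and 1.38 in the others (difference -1.31 ± 0.24; edgeR adjusted p = 0.568). For Rab3c it was -0.11 and -0.78 (difference 0.66 ± 0.25; edgeR adjusted p = 0.915). Pcsk2 and Cplx2 were lower in SR59230A tumors of both sets, at -1.22 and -0.83 for Pcsk2 and -0.41 and -0.67 for Cplx2.

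Other genes of the same pathways were examined as lists, none of whose members was called. Of 36 tested genes of other exocytosis machinery (46 listed), 29 were lower and 7 higher (median -0.14), beside 50.4% of all genes lower. At an edgeR unadjusted p under 0.05, 3 of the 36 were lower and 0 higher, beside 2.41% of all genes lower. The smallest p in that list belonged to Rab27a, a GTPase of granule docking, at 77.1 ± 8.90 CPM in vehicle and 54.8 ± 5.10 CPM in SR59230A tumors (-0.49 ± 0.12; edgeR adjusted p = 0.996), and to Syt17 (25.6 ± 5.92 against 14.6 ± 4.53 CPM; -0.81). Of 14 other vesicle membrane and endocytosis genes, 4 were lower and 10 higher (median 0.07). In this list 2 were lower and 0 higher at an edgeR unadjusted p under 0.05, beside 2.41% of all genes lower. There the smallest p was that of Snap91, a clathrin adaptor of synaptic endocytosis (80.6 ± 8.32 against 64.4 ± 5.56 CPM; -0.32), and of Syn3, a further synapsin (3.46 ± 0.986 against 2.22 ± 0.288 CPM; -0.63).

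Of 12 other prohormone processing and granule genes, 6 were lower and 6 higher (median -0.01). In this list 0 were lower and 1 higher at an edgeR unadjusted p under 0.05, beside 4.63% of all genes in either direction. Carboxypeptidase D (Cpd) was at 94.2 ± 7.39 against 116 ± 13.7 CPM. Dbh, the granule enzyme that makes noradrenaline, was at 140.2 ± 29.8 against 75.4 ± 51.5 CPM. Dbh was between 39.4 and 74.2 CPM in SR59230A tumors 2 to 4 and at 149 CPM in SR59230A tumor 1. Of 22 precursors of neuropeptides and peptide hormones, 14 stayed under 1 TPM in every tumor and 7 could be tested, with Adm and Cartpt having the smallest p (log2 fold change -0.75 and 0.21). The 22 together summed to 33.1 to 63.6 TPM per tumor, beside 789 to 1557 TPM for Chgb alone.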

How the data were processed

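Salmon, run by the authors against a mouse reference transcriptome (GRCm38 in the study's methods, GRCm39 in the submitters' processing notes), gave estimated counts and TPM per transcript for each tumor. A second deposited table holds signal values, namely counts divided by DESeq2 size factors for part of the gene symbols, and served only as an alternative. The library kit was stranded. Transcript identifiers were looked up in GENCODE M21 (GRCm38), where 115685 of 116747 were found. The estimated counts of a gene's transcripts were then added and rounded to whole reads. edgeR 4.0.16 (R 4.3.3) was used with TMM factors, its default low count filter and the quasi-likelihood test, with p-values adjusted by Benjamini-Hochberg over all tested genes. Single genes and paralog ratios were compared by exact two-sided permutation of log2 values (scipy). CPM means are given with SD over 4 tumors. Intervals and limits for counts of 0 cover counting error only. Alternatives used DESeq2 1.42.0, limma 3.58.1 on log2(TPM + 1), other scalings and filters, and leaving out tumors.

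The members and lists were chosen with earlier results of these data known. Per-tumor values were given for the 8 members with the smallest unadjusted p, the 6 with the largest absolute fold change, the 8 with the highest mean TPM, and Cplx2, with values for at most 2 genes of each other pathway list. A few cell type markers were given only to check the tissue. The 6 paralog pairs were chosen after the values were seen. The fit was tested on simulated counts. Promoter and exon sequences came from RefSeq (GRCm38.p6) and GENCODE. Protein sequences were not used here.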

Additional observations from a re-analysis of the deposited data

Results flagged for a closer look

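The named genes gave 32 groups of 4 tumors, and in 1 of them a single tumor stood far from the other 3 on the log2 scale, where chance alone marks about 1 group in 20. Cpe was at 94.4 CPM in vehicle tumor 3 against 111 to 113 CPM in the other vehicle tumors. Vehicle tumor 3 also had the second highest share of mitochondrially encoded reads (6.14%), and the part of that share in the value was not tested.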

How the results depend on the processing

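No member was called under any of the 24 alternatives, and the lowest adjusted p of a member in any of them was 0.116 (Pcsk1n, tumors not labelled 1 or 2). The members' median log2 fold change stayed below 0 in all of them and ran from -0.16 to -0.05 on leaving out each tumor, but without SR59230A tumors 1 and 2 it was -0.015, beside -0.017 for all genes, with 19 of 37 members lower. The number of members at an unadjusted p under 0.05 was 1 with limma on log2(TPM + 1) (2.01% of all genes) or log2(TPM + 0.1) (1.96%). On the deposited normalized counts it was 3 of 11 members (4.11% of all genes). It was 3 without vehicle tumors 0 and 3 and SR59230A tumor 4 (7.21% of all genes). Without SR59230A tumors 1 and 2 it was 3 (1 lower and 2 higher, beside 5.38% of all genes). Leaving out each tumor gave 2 to 7, with 2 without SR59230A tumor 1 (3.78%) and 7 without vehicle tumor 2 (4.59%). The number whose groups did not overlap was 0 with upper quartile factors, 2 with either TPM scale (1 lower and 1 higher; 1.11% of all genes) and 1 to 5 on leaving out each tumor (5 without vehicle tumor 2, beside 4.98% of all genes, and 4 without vehicle tumor 3, beside 9.84%). On TPM the median of all genes shifted to 0.05 (pseudocount 1) and 0.06 (0.1), and 38.2% of all genes were lower, against 50.4% in the main comparison. Replicate numbers 1 to 3 occur in both groups, and deviations of same-numbered tumors correlated at 0.0104, 0.626 and 0.534. Vehicle tumors 2 and 3 correlated best with the SR59230A tumor of the same number, and vehicle tumor 1 with SR59230A tumor 2 (0.631). The labels do not say what same-numbered tumors have in common, and a shared factor was not tested. With the replicate block on tumors 1 to 3 there were 3 members at an unadjusted p under 0.05, beside 5.64% of all genes. Without the block on the same tumors there were 2, beside 2.65%. The fit with the block called 2 of 15307 genes. Of 376 values of named members, 15 changed sign. Sv2b was -0.0135 and -0.0708 on the 2 TPM scales, -0.0289 with the replicate block and -0.86 in tumors labelled 1 and 2. Scg2 ran from -0.24 to 0.10 on leaving out each tumor and was 0.14 in tumors not labelled 1 or 2 and 0.15 without SR59230A tumors 1 and 2. Scg5 was -0.0241 with the block, -0.0093 without it on the same tumors, -0.0494 to 0.13 on leaving out each tumor and -0.12 in tumors labelled 1 and 2. Scg3 was -0.0525 with the block, -0.0427 without it and -0.0721 to 0.18 on leaving out each tumor, and Cpe was 0.0059 in tumors not labelled 1 or 2. The cause of these shifts was not tested. Rab3c kept an unadjusted p under 0.05 in 2 of 8 fits that left out a tumor, Syt4 in 3, Cplx2 in 7, and Syn2 and Pcsk2 in 8. Of the 36 tested members, 24 had a standard error under 0.2, and those with few reads (Sv2b, Rab3b, Rab27b, Pclo) had larger ones.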
